A study of Mus musculus with 32 samples.

Results

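Retinoic acid is the active form of vitamin A. Retinol travels in plasma bound to the carrier encoded by *Rbp4* and is taken up through the receptor encoded by *Stra6*. Inside cells retinol is oxidised to retinal and then, by the retinaldehyde dehydrogenases *Aldh1a1*, *Aldh1a2* and *Aldh1a3*, to retinoic acid, which binds nuclear receptors such as the one encoded by *Rarb* and is broken down by enzymes of the Cyp26 family, including *Cyp26b1*. *Aldh1a7* is a rodent gene next to *Aldh1a1* whose enzyme is close to Aldh1a1 in sequence and is known as a poor oxidiser of retinal. In the kidney the pathway is known for its role in nephron and ureteric bud development and for its reactivation after tubule injury.

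These 8 genes were chosen by name for their place in the pathway, with earlier results of these data known. They were read from a count table of 53700 genes measured by poly(A) RNA sequencing in 32 mouse kidneys. The kidneys came from male C57BL/6 iKspCre-*Pkd1*del mice, a model of polycystic kidney disease (PKD) in which tamoxifen switches on a Cre recombinase under the kidney tubule promoter KspCad, which removes exons 2 to 11 of *Pkd1*. Wildtype mice (n = 8) received no tamoxifen and were 109 days old. PKD mice (n = 12) and PKD + Salsalate mice (n = 12) received 150 mg/kg tamoxifen on postnatal days 18 and 19 and were 95 days old, and the latter ate chow with 2.5 g/kg salsalate, a prodrug of salicylate, for 2 weeks from day 81. *Pkd1* deletion, tamoxifen and the difference in age cannot be told apart in any comparison with wildtype. The mice of both the PKD and the PKD + Salsalate group had been picked, after treatment, from a larger cohort for similarly mild cystic disease. Comparisons of treated with untreated kidneys therefore hold for kidneys matched in this way. Levels are given in CPM, a gene's counts relative to the size of its library after TMM scaling, set to a fixed total. Log2 fold changes come from edgeR's quasi-likelihood test. A gene was called changed at an adjusted p (Benjamini-Hochberg, over 13961 genes) under 0.05. All 8 genes passed the filter on low counts.

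Total counts ranged from 11193136 to 109807664 per kidney (median 17242801). *Pkd1* itself, counted over all its exons, was at 68.7 ± 10.9 CPM in wildtype (SD, n = 8) and 92.1 ± 15.1 CPM in PKD (n = 12), a total that does not separate the deleted exons from the others. All 10 proximal tubule markers were counted, with a summed level of 18503 to 36716 CPM in wildtype, 23838 to 31708 CPM in PKD and 19249 to 31092 CPM in PKD + Salsalate. PKD replicate 10 stood apart with 5209 CPM summed over 14 liver genes, against 117 to 262 CPM in the other 31 kidneys, and each of the 14 genes was at its highest there. PKD replicate 12 held 105.9 CPM of 8 adrenal cortex genes against 3.93 to 10.6 CPM elsewhere. Of the wildtype libraries, 5 have names ending in R (replicates 1 to 5) and 3 do not (replicates 6 to 8), a difference the labels do not explain. No library of a *Pkd1*-deleted kidney has such a name, so the R set cannot be fully told apart from the wildtype group. Counts on genes made up 73.6 to 76.4% of the wildtype columns with R and 80.9 to 83.1% of those without. PKD replicate 4, without R, was at 74.1%. Several results are also given without PKD replicates 10 or 12, or against each set of wildtype libraries alone.

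In the genome build GRCm39, *Aldh1a1* (ENSMUSG00000053279, chr19:20469539-20622825, plus strand) and *Aldh1a7* (ENSMUSG00000024747, chr19:20667107-20704932, minus strand) are neighbours. The other members are *Aldh1a2* (ENSMUSG00000013584, chr9:71122630-71203527, plus strand), *Aldh1a3* (ENSMUSG00000015134, chr7:66040638-66077850, minus strand), *Rbp4* (ENSMUSG00000024990, chr19:38105066-38113754, minus strand), *Stra6* (ENSMUSG00000032327, chr9:57970967-58063543, plus strand), *Rarb* (ENSMUSG00000017491, chr14:5650540-6041094, plus strand) and *Cyp26b1* (ENSMUSG00000063415, chr6:84548396-84570890, minus strand). Of the exon bases of *Rarb*, 31.2% overlap *Top2b* on the other strand, and the reads had been counted by strand. The coding sequences of *Aldh1a1* and *Aldh1a7* are identical at 1380 of 1506 aligned bases (91.6%) with 0 gaps, while the other pairs of Aldh1a genes share 65.9 to 68.5%. The canonical transcripts of this closest pair are 6202 (*Aldh1a1*) and 5282 (*Aldh1a7*) bases long, and their parts outside the coding sequence were not compared. The first 90 coding bases are shown because the counts of the pair rest in part on telling such stretches apart. Capitals mark the 5 bases that differ.
Aldh1a1: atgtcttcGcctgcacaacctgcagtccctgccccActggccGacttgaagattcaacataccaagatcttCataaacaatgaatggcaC
Aldh1a7: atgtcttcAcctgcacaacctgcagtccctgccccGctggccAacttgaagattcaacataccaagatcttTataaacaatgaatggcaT
The longest run without a difference was 100 bases. Reads with more than 1 place in the genome made up 7.13 to 9.82% of each library and had not been counted, and how many of them came from these neighbouring genes was not tested.

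Retinoic acid receptors are known to bind paired half-sites spaced by 1, 2 or 5 bases (DR1, DR2 and DR5). The half-site AGGTCA, its variant AGTTCA and the forms of both that open with G in place of A were searched, in any pairing, on both strands from 1000 bases before to 100 bases after each annotated transcript start of the members. Among 71 starts, 1 distinct site was found, a DR5 on the plus strand at chr14:5894234-5894250 (GRCm39) beside starts of *Rarb*. It is shown because *Rarb* is the receptor gene of the group, with 6 bases on either side and the half-sites in capitals.
Rarb DR5: gggaagGGTTCAccgaaAGTTCActcgca
Windows of the same length at 168708 transcript starts of protein-coding genes held a DR5 in 0.358% of cases, a DR1 in 0.756% and a DR2 in 0.792%, without regard to overlap between these patterns. The match is a description of the sequence, and binding was not measured.

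*Stra6*, *Aldh1a1*, *Aldh1a2* and *Aldh1a7* were each higher in every PKD kidney than in any wildtype kidney, by 2.89-fold to 6.39-fold in the fit. *Aldh1a3* fell, and *Rarb* and *Cyp26b1* were not called. *Rbp4* was called higher through 1 kidney. Of the 8 genes, 5 were called higher and 1 lower in PKD against wildtype. Of all genes tested, 24.1% were called higher and 25.0% lower (49.1% in either direction). Because the members were chosen with earlier results of these data known, such shares are a description and not a test of the group. The median log2 fold change of the 8 genes was 1.61, against -0.01 over all genes, and 0.70 without PKD replicate 10, where *Rbp4* was no longer called and *Cyp26b1* was called lower. The ranges of PKD and wildtype did not overlap for 4 of the 8, and 5.21% of all genes had such separate ranges with PKD higher (2.07% with PKD lower, which no member had).

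**Figure D1:**
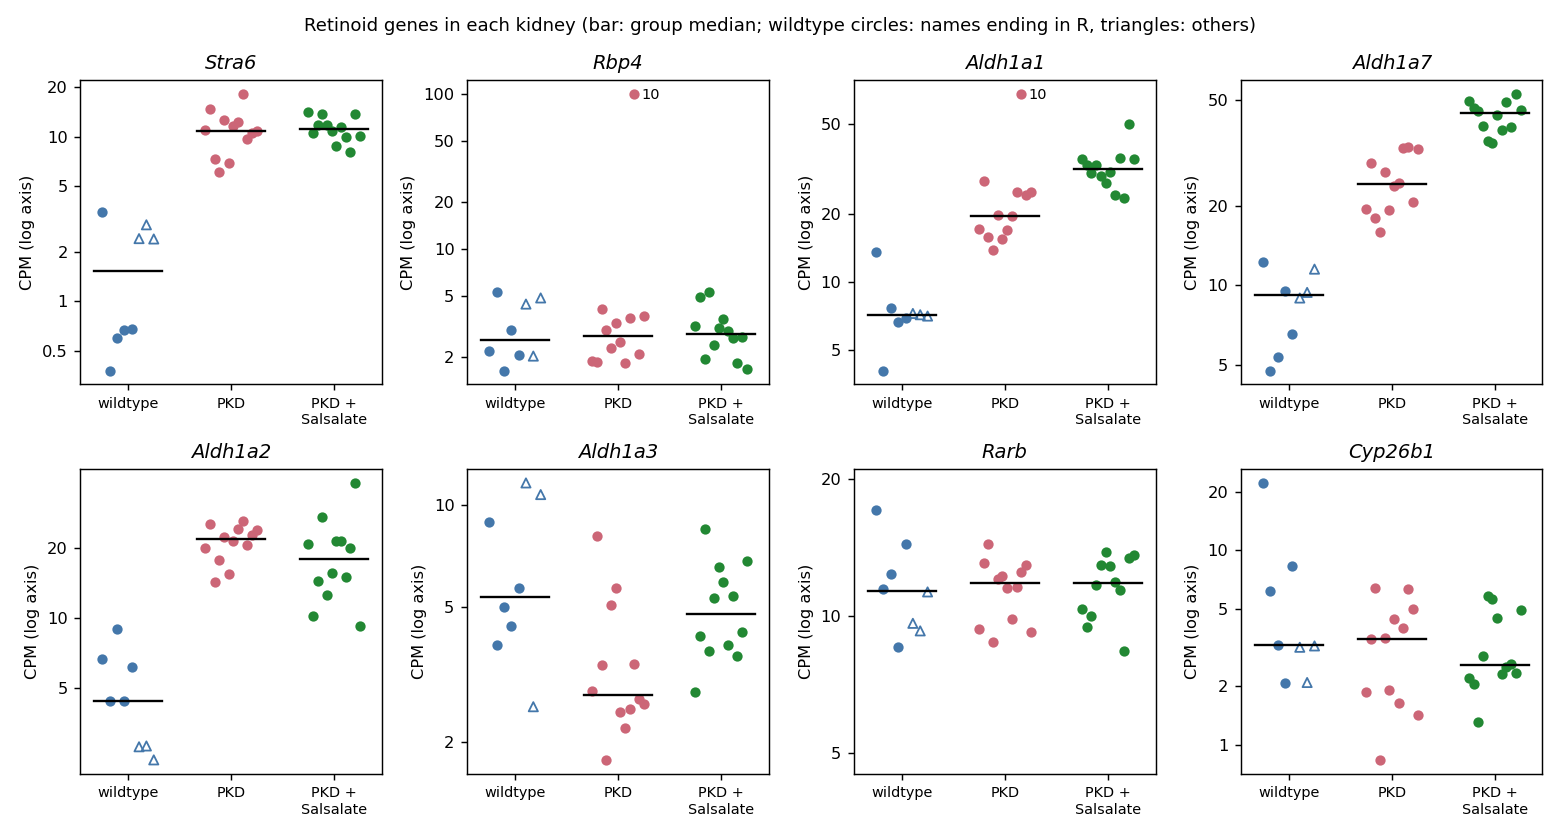
Level of each of the 8 retinoid genes in each kidney, in CPM on a log scale, by group (8 wildtype, 12 PKD and 12 PKD + Salsalate kidneys), with the group median as a bar, and wildtype libraries named with R as circles and the others as triangles. *Stra6*, *Aldh1a1*, *Aldh1a2* and *Aldh1a7* were higher in all 24 *Pkd1*-deleted kidneys than in any wildtype kidney, and PKD replicate 10 stands far above the rest for *Rbp4* at 101 CPM.

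*Stra6*, the retinol uptake receptor, was at 0.381 CPM in the lowest, 1.54 CPM in the median and 3.50 CPM in the highest wildtype kidney, at 6.14, 10.9 and 18.3 CPM in PKD, and at 8.11, 11.1 and 14.2 CPM in PKD + Salsalate. Wildtype kidneys were all low and overlapped neither *Pkd1*-deleted group, while the ranges of the treated and untreated groups overlapped. The log2 fold change of PKD against wildtype was 2.68 ± 0.26 (SE, adjusted p = 6.05e-10), a 6.39-fold difference (95% interval 4.40 to 9.29). Wildtype counts were few, from 6 to 66 reads per kidney. Within wildtype, 4 of the libraries named with R held 0.381 to 0.684 CPM and the fifth, replicate 1, held 3.50 CPM, whereas the 3 others held 2.39 to 2.92 CPM. The change was 3.35 against the R libraries and 2.12 against the others on the log2 scale, and passed the test against either set. Salsalate left no detectable difference from PKD, at 0.02 on the log2 scale (95% interval -0.37 to 0.41, adjusted p = 0.988).

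*Rbp4*, the plasma retinol carrier made mainly by the liver, was at 1.64, 2.58 and 5.27 CPM in the lowest, median and highest wildtype kidney, at 1.84, 2.74 and 101 CPM in PKD, and at 1.68, 2.82 and 5.27 CPM in PKD + Salsalate. All 3 groups overlapped, and PKD replicate 10 alone was high, with the next PKD kidney at 4.11 CPM. The called rise in PKD (1.69 ± 0.68 on the log2 scale, adjusted p = 0.0391) turned to -0.27 (adjusted p = 0.348) without that kidney. With all PKD kidneys it was 1.85 against the wildtype libraries with R (adjusted p = 0.0689) and 1.43 against those without (adjusted p = 0.277), neither called. The difference of PKD + Salsalate from PKD was -1.81 (adjusted p = 0.164) with PKD replicate 10 and 0.15 without it. This is the kidney with the 14 liver genes at their highest, *Alb* among them at 1930 CPM against at most 11.4 CPM in any other kidney. Of the retinoid genes kept out by the filter, 3 were also highest there, the retinol dehydrogenase *Rdh7* at 45.3 CPM (next kidney 1.29 CPM), the alcohol dehydrogenase *Adh4* at 4.26 CPM (next kidney 0.551 CPM) and the retinoic acid response gene *Rarres1* at 3.31 CPM (next kidney 0.778 CPM).

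*Aldh1a2*, the retinaldehyde dehydrogenase best known for retinoic acid synthesis in the embryo, was at 2.43, 4.38 and 8.97 CPM in the lowest, median and highest wildtype kidney, at 14.3, 22.0 and 26.4 CPM in PKD, and at 9.22, 17.9 and 38.4 CPM in PKD + Salsalate. Every *Pkd1*-deleted kidney was above every wildtype kidney, and the treated group was the most spread. The log2 fold change of PKD against wildtype was 2.21 ± 0.24 (adjusted p = 6.16e-09), a 4.61-fold difference (95% interval 3.27 to 6.51). Wildtype libraries with R held 4.38 to 8.97 CPM and those without held 2.43 to 2.79 CPM, so that the log2 change was 1.82 against the first set and 3.00 against the second, called against both. Against PKD, PKD + Salsalate differed by -0.17 on the log2 scale (95% interval -0.55 to 0.21, adjusted p = 0.841).

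*Aldh1a1*, the retinaldehyde dehydrogenase widely expressed in adult tissues, was at 4.06, 7.12 and 13.6 CPM in the lowest, median and highest wildtype kidney, at 13.9, 19.7 and 68.3 CPM in PKD, and at 23.5, 31.8 and 50.3 CPM in PKD + Salsalate. The wildtype range ended just under the PKD range, and the treated group overlapped PKD although all 12 treated kidneys were above the PKD median. PKD replicate 10 was the highest of all kidneys, with the next PKD kidney at 28.0 CPM. The rise in PKD was 1.69 ± 0.24 on the log2 scale (adjusted p = 6.13e-07), a 3.22-fold difference (95% interval 1.20 to 2.17 on the log2 scale), and it was 1.44 without PKD replicate 10. The further difference of PKD + Salsalate from PKD, 0.43 ± 0.19 (unadjusted p = 0.0300), was not called (adjusted p = 0.400). Without PKD replicate 10 it was 0.68 ± 0.13 and was called (adjusted p = 0.0119), and the mean of the other 11 PKD kidneys was 20.1 ± 4.73 CPM (SD). Leaving out PKD replicates 10 and 12 together gave 0.71 (adjusted p = 0.0117).

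*Aldh1a7* was the member that differed between treated and untreated PKD kidneys in the fit of all 32 kidneys. It was at 4.76, 9.17 and 12.2 CPM in the lowest, median and highest wildtype kidney, at 15.9, 24.1 and 33.4 CPM in PKD, and at 34.5, 44.8 and 53.0 CPM in PKD + Salsalate. The 3 groups formed 3 steps without overlap, since all 12 treated kidneys were above the highest PKD kidney and all 12 PKD kidneys were above the highest wildtype kidney. Ranges without overlap were found in this direction for 3 of 13961 genes (0.0215%) between the treated and untreated groups, and in the other direction for 0.00716% of genes and no member. The log2 fold change was 1.53 ± 0.16 for PKD against wildtype (2.89-fold, adjusted p = 1.33e-09). It was 0.81 ± 0.13 for PKD + Salsalate against PKD (1.76-fold, 95% interval 0.56 to 1.07 on the log2 scale, adjusted p = 0.00126). Leaving out each kidney in turn kept the latter between 0.77 and 0.86, with adjusted p from 0.000391 to 0.00405. The whole comparison of PKD + Salsalate with PKD called 0.580% of genes, 35 higher (0.251%) and 46 lower (0.329%), and *Aldh1a7* was the single retinoid member among them. At an unadjusted p under 0.05, 4 of the 8 members passed, and 2 without PKD replicates 10 and 12, where 10.3% of all genes passed with all kidneys.

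**Figure D2:**
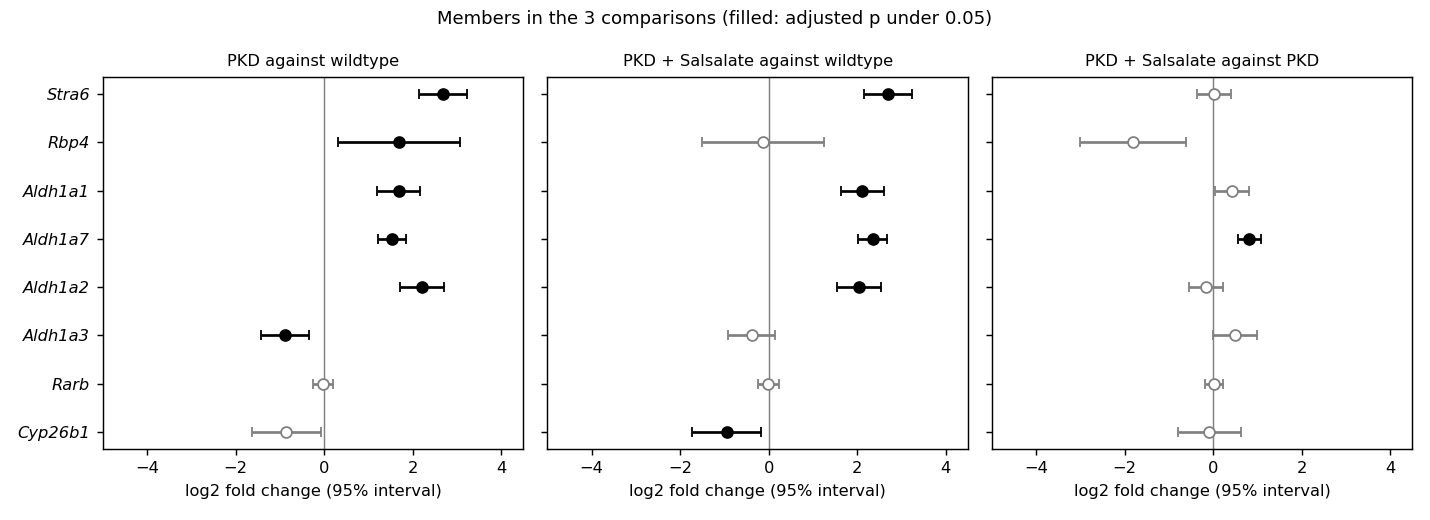
Log2 fold change of each of the 8 genes in the 3 comparisons, with its 95% interval as a line and filled points where the adjusted p is under 0.05. *Stra6* lies farthest to the right against wildtype (2.68 in PKD), and *Aldh1a7* is the filled point of the comparison between the treated and untreated groups, at 0.81.

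The neighbours *Aldh1a7* and *Aldh1a1* were compared within each kidney by the ratio of their counts (with 0.5 added to each). The median ratio was 1.20 in wildtype (range 0.698 to 1.62), 1.19 in PKD (0.490 to 1.40) and 1.40 in PKD + Salsalate (1.05 to 1.69). All 3 ranges overlapped, and PKD replicate 10 gave the lowest PKD value. Between PKD and wildtype the mean log2 ratio differed by -0.03 (two-sided exact permutation test over 125970 splits, p = 0.904, also 0.904 adjusted over 3 comparisons). PKD + Salsalate exceeded PKD by 0.30 (two-sided permutation test with 100000 resamples, p = 0.0118, adjusted p = 0.0353) and wildtype by 0.27 (exact permutation test, p = 0.0573, adjusted p = 0.0859). The latter was 0.45 against the wildtype libraries with R (exact permutation test, adjusted p = 0.0177) and -0.02 against those without (adjusted p = 0.888). Without PKD replicates 10 and 12 the excess over PKD was 0.21 and no longer passed (permutation test, adjusted p = 0.0638). It was 0.198 without replicate 10 alone and 0.327 without replicate 12 alone, and these values were not tested. Across the 24 *Pkd1*-deleted kidneys, with the group means removed, the log2 levels of this pair had a Pearson r of 0.743, given as a description.

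**Figure D3:**
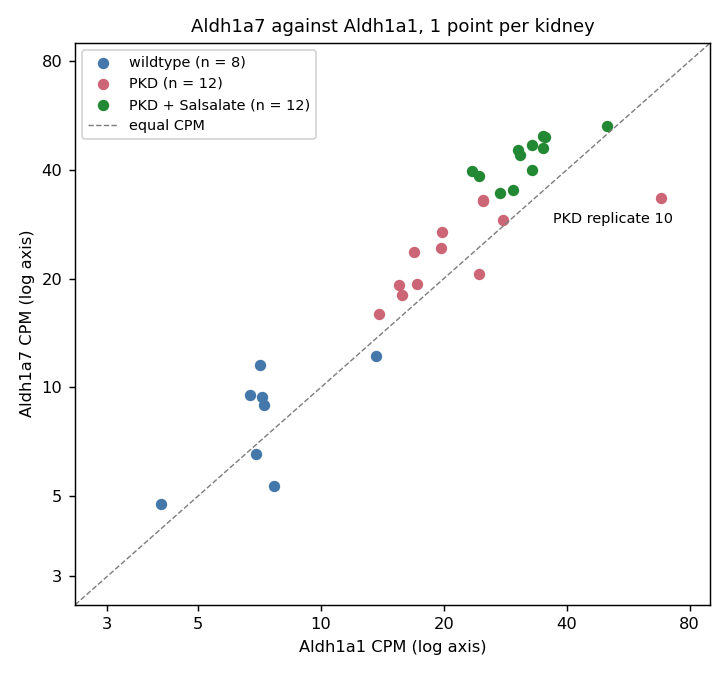
Level of *Aldh1a7* against that of *Aldh1a1* in each of 32 kidneys, both in CPM on log scales, by group, with a dashed line where both are equal. Treated kidneys lie above 34 CPM of *Aldh1a7* and overlap the untreated kidneys on the *Aldh1a1* axis, where PKD replicate 10 lies farthest to the right at 68.3 CPM.

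*Aldh1a3*, the third retinaldehyde dehydrogenase, moved the other way. It was at 2.54, 5.35 and 11.6 CPM in the lowest, median and highest wildtype kidney, at 1.77, 2.74 and 8.08 CPM in PKD, and at 2.81, 4.77 and 8.51 CPM in PKD + Salsalate. All groups overlapped, with 10 of 12 PKD kidneys below the wildtype median and all 12 treated kidneys above the PKD median. The fall in PKD was -0.88 ± 0.27 on the log2 scale (adjusted p = 0.00677). Set against wildtype replicates 1 to 5 (names with R) it was -0.60 and not called (adjusted p = 0.0650), and set against replicates 6 to 8 it was -1.22 (adjusted p = 0.00550). PKD + Salsalate differed from PKD by 0.50 ± 0.24 (unadjusted p = 0.0475), which was not called (adjusted p = 0.477), and from wildtype by -0.38 (adjusted p = 0.239).

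*Rarb*, the retinoic acid receptor that is itself a known target of retinoic acid, showed no called change. It was at 8.55, 11.4 and 17.0 CPM in the lowest, median and highest wildtype kidney, at 8.75, 11.8 and 14.4 CPM in PKD, and at 8.37, 11.8 and 13.8 CPM in PKD + Salsalate. The ranges lay on top of one another. PKD against wildtype gave -0.03 on the log2 scale with a 95% interval of -0.26 to 0.21 (adjusted p = 0.865), and PKD + Salsalate against PKD gave 0.02 with an interval of -0.18 to 0.23 (adjusted p = 0.977).

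*Cyp26b1*, the enzyme that breaks retinoic acid down and a known target of it, was at 2.08, 3.25 and 22.3 CPM in the lowest, median and highest wildtype kidney, at 0.838, 3.52 and 6.41 CPM in PKD, and at 1.31, 2.56 and 5.83 CPM in PKD + Salsalate. The groups overlapped, and wildtype replicate 1 stood above the rest, with the next wildtype kidney at 8.36 CPM. PKD against wildtype was -0.86 (adjusted p = 0.0622) and PKD + Salsalate against wildtype -0.94 (adjusted p = 0.0442, called). Without wildtype replicate 1 these were -0.24 (adjusted p = 0.574) and -0.33 (adjusted p = 0.447), and against the wildtype libraries without R they were 0.24 and 0.15. Treated and untreated kidneys differed by -0.09 (95% interval -0.80 to 0.63, adjusted p = 0.970).

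In PKD + Salsalate against wildtype, 4 members were called higher and 1, *Cyp26b1*, lower, where 21.8% of all genes were called higher and 23.2% lower (44.9% in either direction). *Stra6* was 6.48-fold higher (adjusted p = 8.81e-10), *Aldh1a7* 5.08-fold, *Aldh1a1* 4.33-fold and *Aldh1a2* 4.10-fold. The ranges of these 4 did not overlap those of wildtype, as for 4.46% of all genes with PKD + Salsalate higher, and no member lay wholly below wildtype, as 1.93% of all genes did. These same 4 genes were called against either set of wildtype libraries in both comparisons with wildtype. *Rbp4* stood at -0.13 (adjusted p = 0.896) and *Rarb* at -0.01 (adjusted p = 0.974). Both comparisons use the same 8 wildtype kidneys.

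Set per length of the canonical transcript, the order of the members differed between groups. In wildtype the highest median levels were those of *Rarb* (3.34 CPM per kb) and *Rbp4* (2.75 CPM per kb), followed by *Aldh1a7* (1.74), *Aldh1a2* (1.62), *Aldh1a3* (1.33) and *Aldh1a1* (1.15), and *Stra6* was the lowest at 0.288 CPM per kb. In PKD *Aldh1a2* led at 8.12 CPM per kb and *Aldh1a7* followed at 4.55 CPM per kb. In PKD + Salsalate *Aldh1a7* led at 8.48 CPM per kb, ahead of *Aldh1a2* at 6.62 and *Aldh1a1* at 5.12 CPM per kb. The lengths assume that the canonical transcript is the one expressed. In the same 12 treated kidneys *Aldh1a7* was at 8.24 ± 1.12 and *Aldh1a2* at 7.00 ± 3.00 CPM per kb (mean ± SD). Their difference within kidneys was not tested.

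Markers of injured tubules, stroma and macrophages were higher in PKD than in wildtype, as the rising members were. In this comparison 24.1% of all genes were called higher. In PKD against wildtype, 6 of 6 injured tubule markers were called higher, and their summed level was 235 to 504 CPM in wildtype, 1216 to 2683 CPM in PKD and 1047 to 3517 CPM in PKD + Salsalate. Likewise 7 of 7 stromal markers (271 to 383 CPM in wildtype, 628 to 1064 CPM in PKD) and 7 of 7 macrophage markers (135 to 205 CPM in wildtype, 299 to 468 CPM in PKD) were called higher. None of these markers was at 0 in any group. Their part in the retinoid gene levels was not tested, and in whole kidney RNA more cells of a type and more RNA per cell cannot be told apart. Between the treated and untreated groups, edgeR called 0 of these 20 markers. All 6 injured tubule markers were lower in PKD + Salsalate, with a median log2 fold change of -0.37 (range -0.82 to -0.12). Of these, 3 had an unadjusted p under 0.05 in edgeR's test, as 10.3% of all genes had. Of the stromal and macrophage markers 0 did. Other lists moved otherwise in PKD against wildtype, where 25.0% of all genes were called lower. Of the markers of podocytes 5 of 6 were called lower, and of thick ascending limb and distal tubule 4 of 6. Of 6 endothelial markers 3 were called lower and 2 higher, and of 7 collecting duct markers 2 lower. Of 10 proximal tubule markers 3 were called lower and 1 higher.

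Within each *Pkd1*-deleted group, the log2 level of each member was compared with the log2 summed level of the 6 injured tubule markers (*Havcr1*, *Lcn2*, *Vcam1*, *Krt20*, *Spp1* and *Sox9*). These 16 relations were chosen after values had been seen, and each has a permutation p from 100000 resamples. How many other genes followed the markers as closely was not counted, so no relation is shown to be particular to a member. *Aldh1a2* followed the markers in both groups. In PKD its Pearson r was 0.933 (permutation p = 7e-05, adjusted p = 0.00056, n = 12) and its Spearman rho 0.860 (permutation p = 0.00063, adjusted p = 0.00504), with r = 0.791 without the 2 kidneys farthest from the median of the markers. In PKD + Salsalate r was 0.948 (permutation p = 1e-05, the smallest these resamples can give, adjusted p = 0.00016) and rho 0.930 (permutation p = 5e-05, adjusted p = 0.0008), with r = 0.920 without the 2 farthest kidneys. PKD + Salsalate replicate 11 had both the highest *Aldh1a2* level, 38.4 CPM, and the highest marker sum, 3517 CPM. *Stra6* followed the markers in PKD, with r = 0.780 (permutation p = 0.0033, adjusted p = 0.0176) and rho = 0.755 (permutation p = 0.00652, adjusted p = 0.0348), and r = 0.690 without the 2 farthest kidneys. In PKD + Salsalate *Stra6* had r = 0.457 (permutation, adjusted p = 0.385), and the difference between the groups was not tested. *Aldh1a7* had r = 0.609 in PKD (permutation, adjusted p = 0.134) and 0.235 in PKD + Salsalate, neither of which passed, and no relation of the other 5 members passed either.

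**Figure D4:**
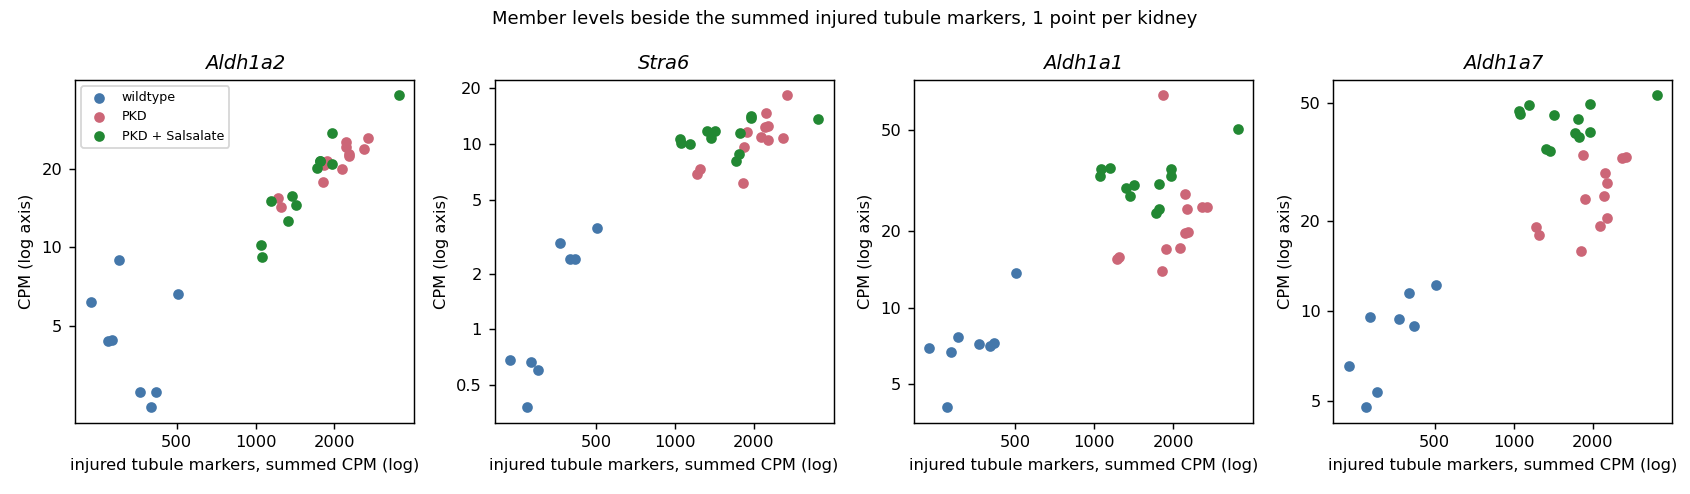
Levels of *Aldh1a2*, *Stra6*, *Aldh1a1* and *Aldh1a7* (CPM, log scale) against the summed level of 6 injured tubule markers (CPM, log scale), one point per kidney, by group. The points of *Aldh1a2* rise with the markers in both *Pkd1*-deleted groups (r = 0.933 and 0.948), and for *Aldh1a7* all 12 treated kidneys lie above the PKD kidneys.

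The genes most like each member were found by Pearson r of log2 CPM over the 24 *Pkd1*-deleted kidneys after removing the group means, and are given as a description. For *Aldh1a2* these were *Anxa1* (0.935), which encodes an annexin, the injury marker *Havcr1* (0.933) and *Spp1* (0.920), which encodes osteopontin, and the last 2 belong to the marker list above. *Stra6* was most like *Slc3a2* (0.894), a subunit of amino acid transporters, *Arl10* (0.862) and *Tnfaip3* (0.844). *Aldh1a7* was most like *Ugt2b34* (0.876), a glucuronosyltransferase gene, *Pklr* (0.846), a pyruvate kinase gene, and the retinal reductase gene *Rdh11* (0.827). *Aldh1a3* was most like *Akr1b1* (0.875), *Npy1r* (0.859) and *Vcan* (0.819). *Rarb* and *Cyp26b1* were among the 3 most alike for each other, at 0.774. For *Aldh1a1* the 3 genes were *Gc* (0.913), *Fgb* (0.877) and *Fgg* (0.872), and for *Rbp4* they were *H2-Q10* (0.962), *Apoc1* (0.928) and *Itih3* (0.927), several of them genes of plasma proteins made by the liver. Without PKD replicate 10 the 3 genes most like *Aldh1a1* were *Tcf7* (0.823), *Gpc3* (0.820) and *Serpinb1a* (0.817), and that most like *Rbp4* was *Agpat2* (0.833). Without that kidney *Pklr* and *Rdh11* gave way to *Gm13652* (0.851) and *Bhlhb9* (0.846) beside *Aldh1a7*, *Spp1* to *Serpina10* (0.923) beside *Aldh1a2*, and *Tnfaip3* to *Gpr182* (0.867) beside *Stra6*.

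Changes in the rest of the pathway were smaller than those of the 4 rising members. This is a description only, because the members were chosen with earlier results known and these 4 were singled out for their rise. Of 56 other genes of retinoid handling, 35 were tested. In PKD against wildtype 8 were called higher and 7 lower, where 24.1% of all genes were called higher and 25.0% lower. The median log2 fold change of the 35 genes was -0.09, with a range of -0.97 to 0.71. Among the called genes of binding and uptake, *Stra6l*, a second retinol transporter, was at 0.68, *Lrp2*, the proximal tubule receptor that recovers filtered retinol carrier, at 0.58, and *Fabp5*, a retinoic acid binding protein, at 0.28. Of the genes that interconvert retinol and retinal, *Rdh10*, which makes retinal, was called at 0.71, *Rdh11* at 0.63 and *Rdh16* at -0.37. Of the ester and carotenoid genes, *Bco2* (-0.38), which cleaves carotenoids, and *Dgat1* (-0.24), which can form retinyl esters, were called lower. Of the other receptors *Rara* was at 0.28, *Rxra* at -0.33 and *Rxrb* at -0.49. Among response genes *Cd38* (0.39) and *Tgm2* (0.26) were called higher, and *Hoxd4* (-0.97) and *Hoxb4* (-0.81) lower. Of these 15 genes, *Bco2*, *Rxra* and *Rxrb* were called against either set of wildtype libraries and the other 12 were not. Against the libraries without R, *Rdh10* was at 0.10, *Hoxb4* at -0.02 and *Hoxd4* at 0.07.

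**Figure D5:**
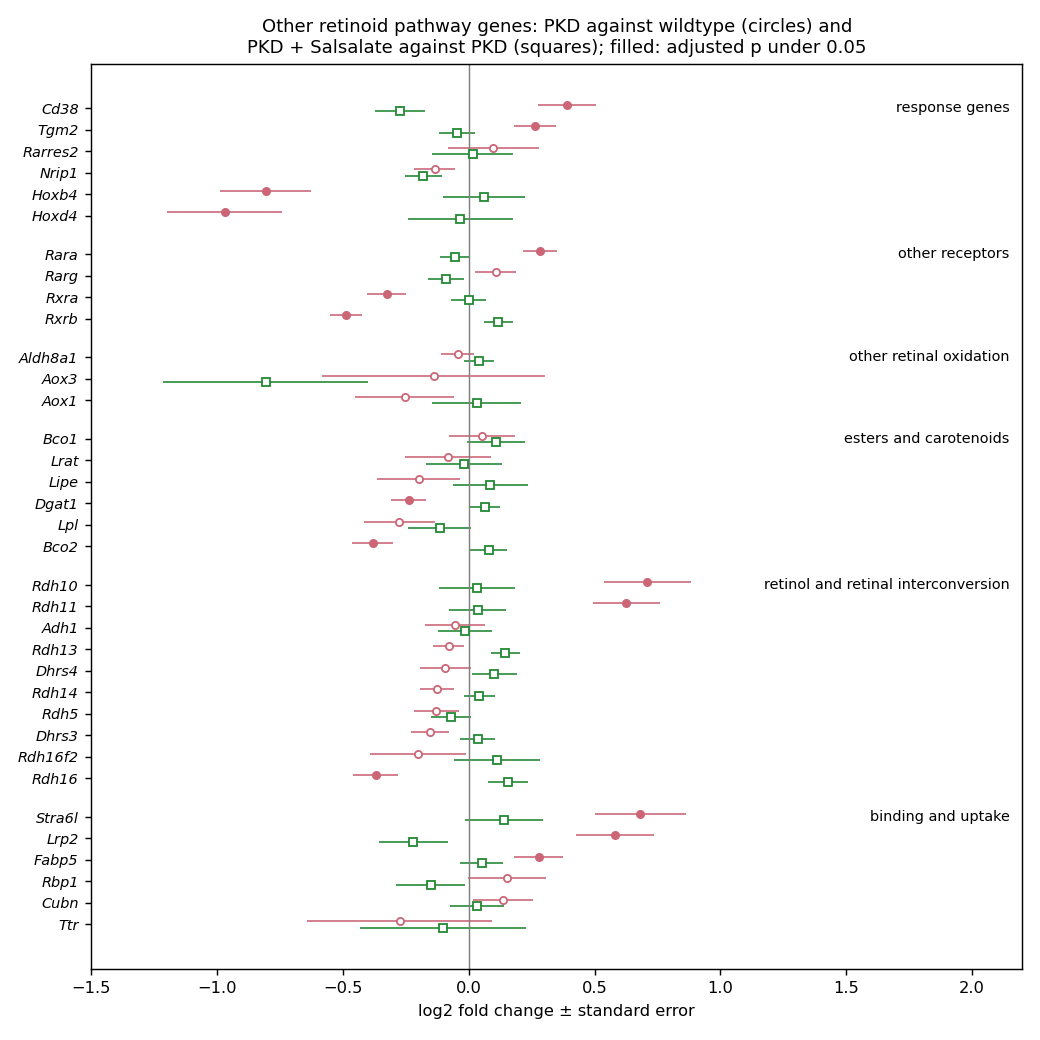
Log2 fold changes of 35 other genes of the retinoid pathway, by role, in PKD against wildtype (circles) and in PKD + Salsalate against PKD (squares), with the standard error as a line and filled points where the adjusted p is under 0.05. They lie between -0.97 (*Hoxd4*) and 0.71 (*Rdh10*) against wildtype with 15 filled, and 0 of the 35 are filled between the treated and untreated groups.

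Against wildtype, PKD + Salsalate kidneys had 6 of the 35 genes called higher and 8 lower, where 21.8% of all genes were called higher and 23.2% lower. *Stra6l* (0.82), *Rdh10* (0.74), *Rdh11* (0.66) and *Fabp5* (0.33) were higher, and *Hoxd4* (2.01-fold lower), *Hoxb4* (-0.75), *Lpl* (-0.39) and *Nrip1* (-0.32) were lower, given as log2 fold changes except for *Hoxd4*. None of these 8 named genes was called against the wildtype libraries without R, where *Rdh10* was at 0.13 and *Hoxd4* and *Hoxb4* turned to 0.05 and 0.04. Of the 14 called genes, *Bco2*, *Rxra* and *Rxrb* were called against either set. Between PKD + Salsalate and PKD, edgeR's quasi-likelihood test called 0 of the 35 and DESeq2 called 0, and 4 had an unadjusted p under 0.05 (*Cd38*, *Rdh13*, *Nrip1* and *Rxrb*, at -0.27, 0.15, -0.18 and 0.12 on the log2 scale, named after their values were seen), as 10.3% of all genes had. The other breakdown enzymes were too low to test, with *Cyp26a1* at 1.32 CPM or less and *Cyp26c1* at 0.211 CPM or less in every kidney. *Crabp1* and *Crabp2*, which bind retinoic acid inside cells, were at most at 0.648 and 1.04 CPM.

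Of 15 other aldehyde dehydrogenases, 12 were tested, with a median log2 fold change of -0.12 in PKD against wildtype. There 1 was called higher and 3 lower, where 24.1% of all genes were called higher and 25.0% lower. *Aldh18a1*, an enzyme of proline synthesis, was the one called higher, at 0.99 on the log2 scale, and *Aldh1l1* (-0.39), *Aldh7a1* (-0.25) and *Aldh9a1* (-0.21) were lower. *Aldh18a1* and *Aldh1l1* were called against either set of wildtype libraries, whereas *Aldh7a1* was at -0.03 (adjusted p = 0.813) and *Aldh9a1* at -0.02 (adjusted p = 0.856) against those with R. Between PKD + Salsalate and PKD, edgeR called 0 of the 12, with 2 at an unadjusted p under 0.05, a threshold that 10.3% of all genes passed. *Aldh1l1* (0.19) and *Aldh4a1* (0.13) were those 2, named after their values were seen, next to 0.81 for *Aldh1a7*.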

How the data were processed

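The deposited table holds raw counts of reads per gene. According to the submitters' processing notes, the authors converted and trimmed the reads (bcl2fastq 2.20, cutadapt 2.10), aligned them to GRCm39 (STAR 2.7.5a) and used HTSeq 0.12.4, set to respect strand, for counting. The 32 kidneys came from separate mice. Counts on genes made up 73.6 to 83.1% of each column. The summary lines for reads outside genes (7.60 to 16.4%), ambiguous reads (1.47 to 1.69%) and reads with several places (7.13 to 9.82%) stayed out of library sizes and tests.

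Genes with a log2 CPM above 1 in at least 25% of kidneys were kept (13961 genes), after the study's methods. Libraries were scaled by TMM, and all 3 groups were fitted together with edgeR 4.0.16 (R 4.3.3) using glmQLFit and glmQLFTest, with Benjamini-Hochberg adjustment over all genes kept. The study's methods name edgeR but not which of its tests. CPM values in the text are raw counts divided by the TMM-scaled size of each library over the genes kept. The log2 CPM for likeness between genes used a prior count of 2. Permutation tests used scipy 1.17.1, and DESeq2 1.42.0 was an alternative. On simulated counts for PKD + Salsalate against PKD (13869 genes), 88 of 100 genes changed 1.5-fold and 99 of 100 changed 2-fold were recovered, with 6 false calls among 193. The simulated kidneys had no difference between PKD and wildtype. They held more changed genes than the 81 called in the real comparison, which eases the adjusted threshold. These shares need not hold for the members, and a gene not called may still have changed.

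The members and lists were chosen with earlier results of these data known. Named genes were the members, up to 3 called genes in each direction per list and comparison by size of change, and the 3 genes most like each member. Symbols, positions and sequences came from a GENCODE annotation of GRCm39, which matched 52610 of 53700 identifiers. Coding sequences were aligned with Biopython 1.88. Starts of all transcripts of protein-coding genes were searched for half-sites after the protein-coding starts of the members had held none.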

Additional observations from a re-analysis of the deposited data

Results flagged for a closer look

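Among 9 wildtype groups of values tested for a single kidney far from the rest (the 8 members and the *Aldh1a7* to *Aldh1a1* ratio), 2 had such a kidney, and chance gives about 1 in 20. It was wildtype replicate 1 both times. *Aldh1a1* was at 13.6 CPM there, against 4.06 to 7.67 CPM in the other 7 wildtype kidneys. *Cyp26b1* was at 22.3 CPM there, against 2.08 to 8.36 CPM in the others. The groups of 12 kidneys were not tested in this way.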

How the results depend on the processing

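The numbers of members called were 6 in PKD against wildtype, 1 in PKD + Salsalate against PKD and 5 in PKD + Salsalate against wildtype. They ranged from 5 to 7, from 1 to 2 and from 4 to 5 when each kidney was left out in turn, and those of the other pathway genes from 15 to 18, at 0, and from 12 to 16. Leaving out PKD replicates 10 and 12, chosen after seeing the data, gave 2 members called between treated and untreated kidneys and moved the log2 ratio of *Aldh1a7* to *Aldh1a1* to 0.21 (permutation, adjusted p = 0.0638). Leaving out 1 kidney at a time gave 0.198 (without PKD replicate 10) to 0.338 for that difference, and these values were not tested. Against the wildtype libraries with R alone, the ratio in PKD + Salsalate was higher by 0.45 (exact permutation test, adjusted p = 0.0177), and against those without R it differed by -0.02 (adjusted p = 0.888). *Rbp4* in PKD against wildtype was -0.26 with DESeq2 (adjusted p = 0.355), -0.32 without PKD replicates 10 and 12, and -0.27 to 1.82 with each kidney left out. *Cyp26b1* in PKD + Salsalate against wildtype was 0.15 against the wildtype libraries without R. Its call was also lost with no filter (adjusted p = 0.0736), as was that of *Rbp4* in PKD (adjusted p = 0.0530).

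Same-numbered kidneys did not all deviate together, with correlations from -0.55 to 0.47 between PKD and wildtype, where 3 of 8 numbers correlated best with their own, and from -0.40 to 0.41 between the treated and untreated groups, where 1 of 12 numbers correlated best with its own. The numbers were therefore taken as names. With the replicate number as a block, 5, 1 and 4 members were called, *Rbp4* in PKD was at 0.02 (adjusted p = 0.976) and *Cyp26b1* in PKD + Salsalate against wildtype at -0.77 (adjusted p = 0.170). Calls of *Stra6*, *Aldh1a1*, *Aldh1a2* and *Aldh1a7* against wildtype and of *Aldh1a7* between treated and untreated kidneys kept their direction and their side of the threshold in every alternative run. Levels of a few CPM rest on few reads, down to 6 for *Stra6* in wildtype, and such counts cover counting error only.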
